A study of Mus musculus with 6 samples.

Results

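The testis of newborn mice (postnatal day 1, PN1) was compared with whole male embryos of stage E13.5 (counted in days after conception), to find which genes the newborn testis had gained or lost relative to the embryo and which of these the E13.5 testis did not yet show. The comparison is between 4 of the 6 arrays of the series, and the other 2, of E13.5 testis, gave the earlier stage. All 6 arrays entered the fit, so the spread behind each p-value also draws on the E13.5 testis arrays. A gene counted as gained or lost when its limma test had an adjusted p under 0.05 and the difference was at least 2-fold. That held for 802 of the 13026 genes tested (6.16%), out of 18193 genes measured: 489 were gained (3.75% of the genes tested) and 313 were lost (2.4%).

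Each tissue had 1 array of the inbred strain 129/Sv and 1 array of 129.MOLF-Chr19, a consomic strain that carries chromosome 19 of the MOLF strain on a 129 background. All animals were male, and no treatment is named in the labels. Every array held 1 pool of RNA: 12 pairs of PN1 testes from 129/Sv, 25 pairs from 129.MOLF-Chr19, 3 whole embryos from each strain, and 20 pairs of E13.5 testes from each strain. Per the design text, PN1 testes of the consomic strain hold embryonal carcinoma cells, the stem cells of germ cell tumours, beside germ cells. The strains served as the 2 replicates of a tissue, with strain as a block, so p-values measure the spread between these pools. PN1 testis and embryo differ in age as well as in tissue, and in this contrast these cannot be told apart.

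The testis forms when Sertoli cells enclose the germ cells in cords, while Leydig cells between the cords begin to make androgens. Sertoli cells secrete anti-Mullerian hormone, and Leydig cells turn cholesterol into testosterone through a chain of enzymes. Male germ cells lose their pluripotency genes during fetal life, stop dividing, and build the machinery that silences transposons through piRNAs. The embryo at E13.5 is mostly made of other organs, among them brain, liver, muscle and cartilage, and its blood still holds primitive red cells with embryonic globins.

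Intensities below are the deposited linear values, given first for 129/Sv and then for 129.MOLF-Chr19. For the fits each array was divided by its median (220.5 to 250.7), and values under 0.502 of that median were raised to this floor. A fold against a tissue at the floor on both arrays is written as "at least". All differences named below are PN1 testis minus embryo on the log2 scale unless another pair is named. In bulk tissue, fewer cells of a type and less RNA per cell cannot be told apart.

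The PN1 array of 129.MOLF-Chr19 stood apart in one respect. Its control probe sets for the 3′, middle and 5′ parts of Actb, which encodes beta-actin, read 5118, 1517 and 2778, where the PN1 array of 129/Sv read 15203, 12444 and 12811. The ratio of 3′ to 5′ was 1.84 on that array and 1.09 to 1.19 on the other 5, while the same ratio for Gapdh ran from 0.895 to 0.966 over all 6 arrays. The control for 18S RNA read 3053 on the 129/Sv embryo array and 571 to 787 on the others. Over the genes tested, Pearson's r between the PN1 arrays was 0.964, beside 0.967 for the embryo pair and 0.974 for the E13.5 testis pair. Without the consomic PN1 array 543 genes were gained and 288 were lost, of which 456 and 258 were also members with it.

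Within each strain all 489 gained and all 313 lost genes ran the same way, which the test itself favours. Both strains passed 2-fold for 399 of the gained and 235 of the lost genes. The strains were more than 2-fold apart for 11 gained genes, 8 of them lower in 129.MOLF-Chr19, and for 28 lost genes, 25 of them lower in 129.MOLF-Chr19. The part of the altered actin controls in this was not tested. 117 gained and 82 lost genes passed 4-fold, and 16 and 9 passed 16-fold. At the limit, Pwwp3b at 2.002-fold was just inside and Pmp22 at 1.997-fold just outside the gained genes, and Tnks at 2.003-fold and Tmem33 at 1.991-fold lay on either side of the limit for the lost.

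Many genes have more than 1 probe set, and those not used in the fit gave a second reading from the same arrays. Of 307 other expressed probe sets of gained genes 270 were higher in PN1 testis and 138 were so by at least 2-fold. Of 224 such probe sets of lost genes 199 were lower, 110 of them by at least 2-fold.

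**Figure D1:**
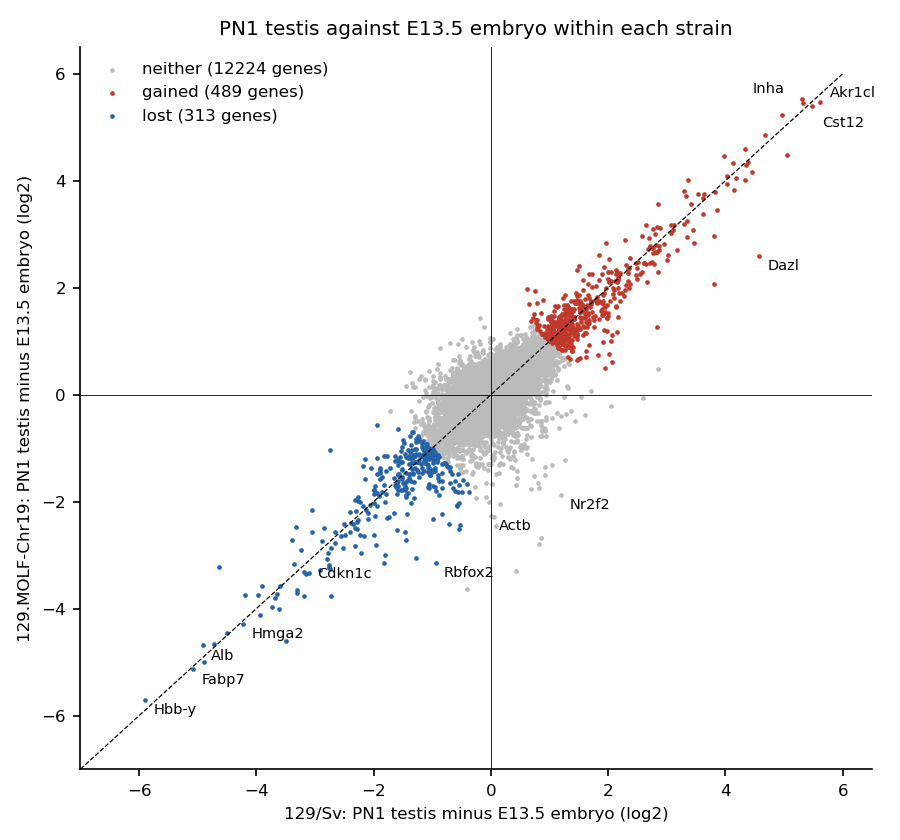
PN1 testis minus E13.5 embryo (log2) in 129/Sv on the x axis and in 129.MOLF-Chr19 on the y axis, 1 point per gene tested, with gained genes in red, lost genes in blue, other genes in grey and the line of equal differences dashed. Most members lie along the line, while Dazl, Rbfox2, Cdkn1c, Nr2f2 and Actb lie below it, lower on the consomic PN1 array.

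Genes of the Sertoli cell, which supports the germ cells, gave the largest number of gained members of the 30 lists. Of 29 Sertoli cell genes tested, 20 were gained and none were lost, with a median difference of 1.97 beside -0.01 over all genes tested. Inha, the alpha subunit of inhibin, read 205 and 175 in the embryos and 7424 and 7770 in PN1 testes. Both PN1 arrays were far above both embryo arrays, a difference of 5.41 ± 0.143 (SE; adjusted p = 1.18e-06) or 42.7-fold. Cst9, a cystatin-type protease inhibitor of the testis, read 113 and 86.6 in the embryos, both at the floor, and 4591 and 5011 in PN1 testes, at least 41.8-fold higher (adjusted p = 1.1e-06). Other cystatins are similar in sequence, so its probe set may share signal with them.

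Further Sertoli cell genes showed the same order. Defb19, a beta-defensin, went from 184 and 150 to 5227 and 5442 (34.2-fold), and Aard from 213 and 175 to 4970 and 4906 (27.3-fold). Amh, anti-Mullerian hormone, read 186 and 147 against 1374 and 871, a difference of 2.82 ± 0.201 (adjusted p = 8.25e-05). Dhh, the hedgehog ligand by which Sertoli cells signal to Leydig cells, read 116 and 119 against 1866 and 1779. In Defb19, Aard and Amh no embryo value came near a PN1 value, and Dhh had 1 embryo array at the floor.

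Sox9, which starts Sertoli cell fate and is also made by cartilage, was not among the members. It read 1821 and 1479 in the embryos, 1625 and 1340 in E13.5 testes and 1451 and 1046 in PN1 testes, and PN1 lay just under the embryo (difference -0.32 ± 0.132, adjusted p = 0.143). On the values as deposited, without centring, the difference was -0.41 with an adjusted p of 0.0447.

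Genes of androgen synthesis rose as well. Of 17 Leydig cell genes tested, 11 were gained and 1 was lost, with a median of 1.8. Akr1cl, an aldo-keto reductase, had the largest difference of the gained genes. It read 151 and 141 in the embryos and 6710 and 6075 in PN1 testes, a difference of 5.54 ± 0.147 (adjusted p = 1.18e-06) or 46.6-fold.

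The enzymes are given here in the order of the pathway. Star, which brings cholesterol into mitochondria, went from 327 and 283 to 1066 and 926 (3.48-fold, adjusted p = 4.66e-05). Cyp11a1, which cuts the side chain of cholesterol, read 113 and 145 in embryos, with 1 array at the floor, and 2329 and 2267 in PN1 testes. Hsd3b1, the next enzyme, went from 251 and 225 to 3711 and 3698 (16.6-fold). Every PN1 value of these genes was above both embryo values. Cyp17a1, which leads on to androgens, went from 156 and 138 to 1417 and 1769 (11.5-fold). Pcsk1n, an inhibitor of a hormone-processing protease, was the lost member of the list, at 486 and 589 against 210 and 268.

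Nr5a1, the nuclear receptor that drives steroidogenic genes, rose from 797 and 640 to 1800 and 1621 (2.55-fold, adjusted p = 0.000367). Of 14 genes listed as its targets, 10 were gained and none were lost (median 2.3). 7 of these 10 are among the genes just described, namely Inha, Amh, Dhh, Star, Cyp11a1, Hsd3b1 and Cyp17a1. The adrenal gland shares the early enzymes. Its own marker Cyp21a1 read 384 and 376 in embryos and 648 and 641 in PN1 testes (difference 0.85, adjusted p = 0.00192), and its second expressed probe set was past 2-fold, at 1.18 and 1.13 in the 2 strains. Cyp11b1, at 132 and 149 against 120 and 155, did not pass the filter on low values.

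Of 18 genes that make or take up cholesterol 2 were gained and none were lost, with a median of 0.11, where 3.75% of all genes tested were gained. Scap, the escort of the sterol-sensing factor SREBP, went from 1166 and 1176 to 3360 and 2835 (2.81-fold). Insig1, which holds that complex back, went from 574 and 457 to 1166 and 1206 (2.47-fold).

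Some glutathione transferases, which conjugate reactive compounds, were gained too. Of 18 antioxidant and glutathione genes tested, 5 were gained, the transferases Gstm1, Gstm2, Gsta2, Gsta3 and Gsta4, and 2 were lost (median 0.27). Of the other transferases tested, Gstm5 was at 0.28 (adjusted p = 0.171) and Gstt1 at 0.2 (adjusted p = 0.343). Gstm2 went from 506 and 610 to 8112 and 8358 (15.8-fold) and Gstm1 from 916 and 765 to 10208 and 9425 (12.5-fold). Gstm6, outside that list, went from 147 and 127 to 2686 and 2966 (22-fold). These paralogs are close in sequence, so their probe sets may share signal. The lost members were Mt1, a metal-binding metallothionein (5899 and 4680 against 1186 and 1805), and Gpx1, a glutathione peroxidase (7607 and 6525 against 1868 and 2397).

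The 10 largest gains also held Cst12, described with the late gains below, and 3 genes of no list. Aldh1a1, which makes retinoic acid, went from 258 and 297 to 7773 and 6436 (27.2-fold). Prss35 went from 180 and 177 to 3418 and 3494 (20.6-fold), and Tesc from 175 and 189 to 3240 and 3592 (20-fold).

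**Figure D2:**
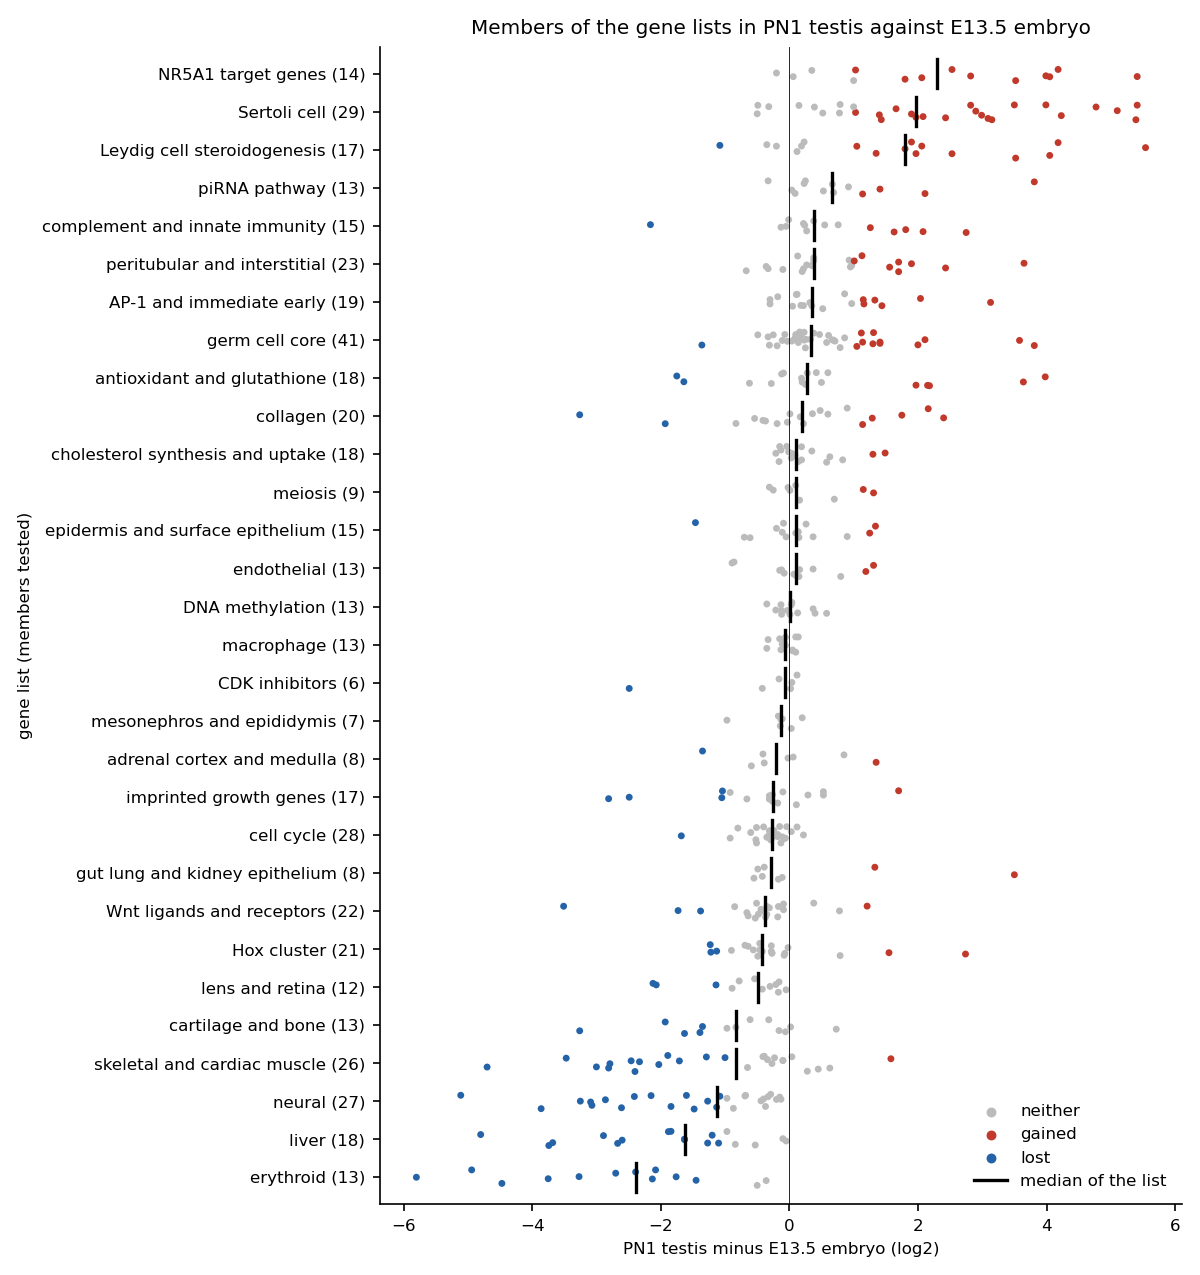
Log2 difference of PN1 testis minus E13.5 embryo on the x axis for every tested member of the 30 gene lists, 1 row per list with the number tested in parentheses, gained members in red, lost in blue, others in grey and the median as a black bar. Medians run from 2.3 for the NR5A1 targets to -2.39 for the erythroid genes.

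Germ cell genes were gained less evenly. Of 41 core germ cell genes tested, 11 were gained and 1 was lost, with a median of 0.33. Mael, a piRNA pathway protein of germ cell granules, read 28.6 and 32.3 in the embryos, both at the floor, and 1626 and 1586 in PN1 testes, at least 14-fold higher (adjusted p = 1.94e-06). Ddx4, the germ cell helicase and defining marker, read 18.1 and 22.1 in the embryos and 494 and 499 in PN1 testes (at least 4.33-fold). Dppa4, a nuclear protein of pluripotent and germ cells, read 69.6 and 64.4 against 380 and 552 (at least 3.99-fold). The PN1 arrays lay above the floor and the embryo arrays at it in all 3 genes.

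Dazl, an RNA-binding protein of germ cells, depended on the array. It read 109 and 97.1 in the embryos, 5114 and 3506 in E13.5 testes and 2718 and 695 in PN1 testes. Its difference of 3.58 ± 0.397 (adjusted p = 0.000726) was 4.46 without the consomic PN1 array, and its second probe set gave 2.86 and 3.32 in the 2 strains. The pluripotency factors Pou5f1 (176 and 454 at PN1) and Sall4 (676 and 1013) were higher on the consomic PN1 array. They were gained with it, and without it their differences were 0.71 and 0.79, under 2-fold. Both were named after their values were seen. The lost gene of the list was Elavl2, an RNA-binding protein shared with neurons, at 1325 and 1826 against 582 and 555; 3 of its 4 other expressed probe sets gave means under 2-fold.

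The promoters of the gained or lost germ cell genes were searched next. These are a minority of the list, since 11 of the 41 germ cell genes tested were gained and 1 was lost. RefSeq's table for GRCm38.p6 held a promoter for 9 of the 12 gained or lost germ cell genes. Both strands of the 250 bases before each start were searched for 4 motifs. For NR5A1 and related receptors the half-site AAGGTCA was used. For GATA factors the letters were AGATAA. For the red cell factor KLF1 they were CCACACCC. The E-box, which many helix-loop-helix factors bind, was searched as CACGTG. This motif was found in 5 of the 9 genes (55.6%), beside 9.61% of the 10453 tested genes with a promoter and 6.02% of all 32851 promoters. The NR5A1 and GATA motifs were found in none of the 9 and the KLF1 motif in 1. The same 4 motifs were searched in the Sertoli cell, Leydig cell, erythroid and NR5A1 target members. There CACGTG was found in 2 of 11 Sertoli cell genes (18.2%) and AGATAA in 2 of 7 Leydig cell genes (28.6%). The germ cell share of CACGTG was the largest of these many shares, all from few genes, and was not tested. The 5 are shown 5′ to 3′ along the gene, ending at its start, with CACGTG in capitals: Ddx4 chr13:112652311-112652560 on the minus strand, Mael chr1:166238745-166238994 on the minus strand, Stk31 chr6:49395289-49395538 on the plus strand, Sycp3 chr10:88459337-88459586 on the plus strand and Tdrd9 chr12:111971309-111971558 on the plus strand. Stk31 has another listed start, which is not shown.
Ddx4: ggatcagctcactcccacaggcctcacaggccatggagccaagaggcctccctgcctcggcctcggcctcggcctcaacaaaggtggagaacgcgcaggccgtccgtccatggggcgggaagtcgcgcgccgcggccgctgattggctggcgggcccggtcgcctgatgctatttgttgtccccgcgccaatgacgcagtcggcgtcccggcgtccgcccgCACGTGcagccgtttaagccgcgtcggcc
Mael: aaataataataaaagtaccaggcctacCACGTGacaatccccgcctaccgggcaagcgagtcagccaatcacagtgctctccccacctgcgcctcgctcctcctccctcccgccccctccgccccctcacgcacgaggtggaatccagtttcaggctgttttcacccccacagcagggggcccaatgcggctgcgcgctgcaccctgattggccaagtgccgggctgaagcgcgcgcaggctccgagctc
Stk31: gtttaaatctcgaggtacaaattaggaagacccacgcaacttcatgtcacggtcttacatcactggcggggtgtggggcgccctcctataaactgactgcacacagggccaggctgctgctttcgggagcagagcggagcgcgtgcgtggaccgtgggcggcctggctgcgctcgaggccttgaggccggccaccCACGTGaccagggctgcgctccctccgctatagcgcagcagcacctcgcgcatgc
Sycp3: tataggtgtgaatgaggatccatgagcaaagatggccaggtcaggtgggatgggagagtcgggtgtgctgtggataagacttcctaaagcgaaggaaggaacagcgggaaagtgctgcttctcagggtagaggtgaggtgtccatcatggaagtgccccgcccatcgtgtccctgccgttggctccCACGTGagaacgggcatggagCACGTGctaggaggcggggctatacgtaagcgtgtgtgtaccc
Tdrd9: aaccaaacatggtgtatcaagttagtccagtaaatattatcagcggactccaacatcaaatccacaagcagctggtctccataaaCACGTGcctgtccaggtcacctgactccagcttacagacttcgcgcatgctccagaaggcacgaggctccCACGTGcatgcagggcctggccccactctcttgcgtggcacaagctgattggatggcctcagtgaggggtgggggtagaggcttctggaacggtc

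Sycp3 and Tdrd9 held the motif at 2 places each, the nearest beginning 43 and 95 bases before the start. Ddx4, Stk31 and Mael held it at 1 place each, 29, 55 and 223 bases before the start. G and C made up 54.8% to 70.4% of these promoters, beside a median of 59.2% for the promoters of tested genes. Over all 377 gained genes with a promoter 35 held CACGTG (9.28%). None of the 6 gained NR5A1 targets with a promoter held AAGGTCA in this window, which 3.49% of tested genes did. A match is a run of letters and not a measured binding site, and the motifs were chosen after the expression values were known.

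The piRNA list shares Mael and Ddx4 with the germ cell list. Of 13 genes tested 4 were gained and none were lost (median 0.67), the others being the helicase Tdrd9 (133 and 131 against 294 and 369) and the PIWI protein Piwil2 (96.1 and 116 against 240 and 268). Among 9 meiosis genes 2 were gained, Sycp3 of the synaptonemal complex (20.6 and 26.6 against 283 and 286) and the chaperone Hspa2 (134 and 135 against 274 and 285). None of 13 DNA methylation genes was gained or lost. 1 of them was called higher by the limma test at under 2-fold, where 11.7% of all genes tested were called higher at any fold.

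Genes of cells between the cords rose in part. Of 23 peritubular and interstitial genes tested, 8 were gained and none were lost (median 0.38). Tcf21, a transcription factor of interstitial progenitors, read 255 and 252 in embryos and 3362 and 2668 in PN1 testes (12.6-fold), while its second expressed probe set gave differences of 0.35 and 0.29. Mgp, an inhibitor of calcification, went from 820 and 670 to 4196 and 3342 (5.38-fold). Smoc2, a matrix-associated protein, went from 507 and 602 to 1814 and 1575.

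Collagens moved both ways. Of 20 tested, 5 were gained and 2 were lost (median 0.2). Col6a1 and Col6a2, chains of microfibrillar collagen, went from 981 and 939 to 5190 and 4358 and from 1766 and 1301 to 6604 and 6150. Of the basement membrane chains, Col4a2 went from 982 and 1090 to 3341 and 3185 and Col4a1 from 3106 and 3620 to 10040 and 5865, the latter lower on the consomic PN1 array. The lost chains were Col2a1, the main collagen of cartilage (3734 and 4664 against 379 and 442), and Col11a1 (547 and 646 against 158 and 134).

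Of 13 endothelial genes 2 were gained and none were lost: Cdh5, the cadherin of endothelial junctions (490 and 523 against 1186 and 1175), and the transcription factor Sox17 (124 and 134 against 206 and 376). Each has a second expressed probe set, which gave -0.14 and 0.05 in the 2 strains for Cdh5 and -0.19 and 0.52 for Sox17. Sox17 was at 0.85, under 2-fold, without the consomic PN1 array. None of 13 macrophage genes passed the limma test after adjustment, where 19.4% of all genes tested did at any fold. Of the 13 macrophage genes 2 had an unadjusted p under 0.05 (4135 of the 13026 genes tested did).

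Immediate early genes respond within minutes to growth signals and to handling of tissue. Of 19 AP-1 and immediate early genes 6 were gained and none were lost (median 0.35). Egr1, a zinc finger factor, went from 285 and 245 to 2198 and 2143 (8.76-fold). Hspa1b, an inducible heat shock protein, went from 354 and 447 to 1470 and 1612, and its near-identical copy Hspa1a from 164 and 137 to 399 and 364. Fosl2, an AP-1 subunit, went from 205 and 204 to 424 and 548, and its second expressed probe set gave differences of 0.27 and 0.06. The part of tissue handling in these values was not tested.

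Of 15 complement and innate immunity genes 5 were gained and 1 was lost (median 0.38). The membrane protein Ly6e went from 231 and 315 to 1499 and 1924, with 0.66 and 0.11 from its second expressed probe set. The complement protease C1ra went from 118 and 116 to 472 and 501 (at least 4.24-fold). The complement inhibitor Serping1 went from 305 and 270 to 974 and 920, and Ifitm1 from 398 and 322 to 1068 and 1017.

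Among 15 genes of surface epithelium 2 were gained and 1 was lost. The gained ones are keratins of simple epithelia with uneven values: Krt8 read 470 and 427 in embryos and 716 and 1589 in PN1 testes, and Krt18 368 and 400 against 575 and 1274. Without the consomic PN1 array their differences were 0.85 and 0.81, under 2-fold. Krt15, a keratin of basal epidermis, was lost, at 560 and 532 against 177 and 196. Of 8 genes of gut, lung and kidney epithelium 2 were gained, Wt1, which gonad and kidney share (141 and 146 against 1584 and 1461), and Cited1, a transcription cofactor (477 and 361 against 807 and 1196).

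Red cell genes had the lowest median of the 30 lists, -2.39. Of 13 tested, 11 were lost and none were gained. Hbb-y, an embryonic beta-like globin, read 14139 and 13946 in embryos and 216 and 259 in PN1 testes, a difference of -5.8 ± 0.113 (adjusted p = 9.32e-07) or 55.7-fold lower. Hbb-bh1, another embryonic beta-like globin, went from 4941 and 5850 to 151 and 178 (30.7-fold lower). Hba-x, the embryonic alpha-like globin, went from 13250 and 13680 to 534 and 604 (22.2-fold lower). Globins are paralogs, so these probe sets may share signal. Slc4a1, the anion exchanger of the red cell membrane, went from 2744 and 2962 to 193 and 205.

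Neural genes that passed the test were all lower in PN1 testis. Of 27 tested, 15 were lost, none were gained, and 6 more were called lower at under 2-fold (median -1.13), where 7.77% of all genes tested were called lower at any fold. Fabp7, a fatty acid-binding protein of radial glia, read 4390 and 4916 in embryos and 118 and 136 in PN1 testes, a difference of -5.11 ± 0.131 (adjusted p = 1.18e-06). Stmn2, which regulates neuronal microtubules, read 2045 and 2286 against 118 and 166, Gap43 of the growth cone 1146 and 1289 against 90.7 and 125, and the neuronal tubulin Tubb3 1599 and 2441 against 192 and 246. Rtn1, a neuronal protein of the endoplasmic reticulum outside the list, read 2651 and 2897 against 158 and 161.

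The defining neural markers differed in size on the probe sets used. Sox2, of neural progenitors, read 795 and 964 in embryos and 82.3 and 158 in PN1 testes (difference -2.61). In E13.5 testes Sox2 read 558 and 652, only 0.45 below the embryo on the log2 scale. Most of its difference thus lay between the 2 ages of testis (-2.15). Dcx, of young neurons, read 786 and 682 against 507 and 508 (difference -0.44 ± 0.117, adjusted p = 0.038). Its other expressed probe sets gave mean differences of -2.73, -2.46 and -0.33, the first and second of them near that of Sox2. As the mean of all its probe sets Dcx was at -1.49, and with the 4 arrays of the comparison alone its adjusted p was 0.0966.

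Liver genes gave 13 lost members of 18 tested and no gained one (median -1.63). Alb, serum albumin, read 6413 and 5499 in embryos and 194 and 208 in PN1 testes (27.8-fold lower). Apoa2, an apolipoprotein, read 3560 and 2599 against 215 and 212, and Rbp4, the retinol carrier, 1919 and 1322 against 175 and 231. Serpina6, the corticosteroid carrier of plasma and no member of the list, read 2698 and 1969 against 133 and 142. The embryo arrays stood well above the PN1 arrays in all 4.

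Afp, alpha-fetoprotein of fetal liver and yolk sac, took another course. It read 9220 and 8004 in embryos, 25.6 and 26 in E13.5 testes, both at the floor, and 674 and 590 in PN1 testes. It was thus lost relative to the embryo (12.8-fold lower) and yet higher at PN1 than in the E13.5 testis, by at least 2.46 on the log2 scale (adjusted p = 6.24e-05).

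Of 26 muscle genes 13 were lost and 1 was gained (median -0.83). Actc1, cardiac actin, read 6273 and 6086 in embryos and 215 and 232 in PN1 testes (26-fold lower). The myosin light chain Mylpf read 2574 and 2191 against 257 and 157 and Myl1 1236 and 1112 against 166 and 85.5. Myog, the myogenic regulator, read 880 and 859 against 121 and 102. Casq2, a calcium-storing protein of muscle, was the gained one, at 445 and 376 against 1278 and 1025.

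Skeleton and eye followed. Of 13 cartilage and bone genes 5 were lost and none were gained (median -0.83), among them Matn4 of cartilage matrix (495 and 572 against 180 and 145) and the transcription factor Sox6 (1140 and 1028 against 348 and 433). Of 12 lens and retina genes 3 were lost, the crystallins Cryaa (528 and 499 against 111 and 115), Cryba1 (810 and 775 against 156 and 186) and Cryga (647 and 576 against 242 and 277).

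Summed over the measured genes of a list, liver genes read 33667 and 27172 in embryos, 3828 and 3345 in E13.5 testes and 4622 and 4947 in PN1 testes, and muscle genes 32351 and 28574, 10251 and 9552 and 12562 and 11101. The Sertoli cell list ran the other way, at 14393 and 13409, 35202 and 35135 and 66480 and 67332. Mesonephros and epididymis, which adjoin the testis, gave no members among 7 genes tested, where 6.16% of all genes tested were members. At that share 7 genes are too few for a reading. In the E13.5 testis 2 of the 7 were at least 2-fold higher than in the embryo and 1 was at least 2-fold lower.

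4 of the 10 largest losses belong to no list, Rtn1 and Serpina6 above and 2 more. Hmga2, a chromatin protein of fetal growth, read 5156 and 5412 in embryos and 250 and 269 in PN1 testes (19.1-fold lower), and its other expressed probe sets gave -4.52 and -4.62. In the E13.5 testis it read 8357 and 6992, higher than in the embryo (difference 0.62, adjusted p = 0.0125). Tubb2a-ps2, named as a tubulin pseudogene, went from 2278 and 2885 to 183 and 91.2, and its probe set may read other tubulins. A second expressed probe set of that name gave 0.43 and 0.17.

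Imprinted genes, many of which govern fetal growth, gave 4 lost and 1 gained of 17 tested (median -0.26). Nnat read 7484 and 7405 in embryos and 821 and 1210 in PN1 testes (7.01-fold lower). Cdkn1c, the CDK inhibitor p57, read 8000 and 8840 against 2049 and 965 (difference -2.49 ± 0.269, adjusted p = 0.00064; -1.93 without the consomic PN1 array). It was the lost member of 6 CDK inhibitors tested. Grb10, an adaptor that restrains insulin signalling, read 5707 and 5756 against 2305 and 2917. Its other expressed probe sets were lower on the consomic PN1 array, at -1.5 and -1.24 in 129/Sv and -4.24 and -3.03 in 129.MOLF-Chr19. Igf2, the fetal growth factor, read 10329 and 10475 against 5593 and 4021. Igf2 was at -0.74, under 2-fold, without the consomic PN1 array. The gained gene was Dcn, a matrix proteoglycan (2455 and 2424 against 8354 and 6584), whose second expressed probe set gave 0.39 and 0.32.

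Of 28 cell cycle genes 1 was lost, Rrm2 of nucleotide synthesis (3255 and 2769 against 670 and 1160), and 5 more were called lower at under 2-fold (median -0.27). Against the E13.5 testis 17 of the 28 were called lower at PN1, where 10.6% of the genes tested were.

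Of 22 Wnt pathway genes 3 were lost and 1 was gained (median -0.38). The secreted modulator Sfrp2 went from 2470 and 2632 to 228 and 194 (11.4-fold lower) and Dkk2 from 384 and 429 to 51.4 and 35.9 (at least 3.32-fold lower). The receptor Fzd2 went from 1981 and 2411 to 971 and 636 and was at -0.94, under 2-fold, without the consomic PN1 array. The ligand Wnt6 went from 718 and 630 to 1348 and 1585.

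Hox genes, which mark position along the body axis, changed in opposite directions within 1 cluster. Of 21 tested, 2 were gained and 3 were lost (median -0.42). From the front, Hoxb2 read 495 and 477 in embryos and 208 and 208 in PN1 testes. The 9 genes of paralog numbers 3 to 7 were no members, with differences from -0.9 to -0.07. The second expressed probe set of Hoxa5, not used in the fit, gave -2.08 and -2.3 in the 2 strains, where the one used gave -0.38 and -0.16. For Hoxa9, also no member, the second gave -0.92 and -1.72 and the one used -0.51 and -0.02. Hoxd8 was called higher at under 2-fold (0.92 and 0.66), while its second expressed probe set gave 1.34 and 1.26. Hoxd9 read 314 and 301 against 1877 and 1989 (6.7-fold higher) and Hoxd10 214 and 235 against 590 and 648. Their neighbour Hoxd13 read 327 and 299 against 106 and 138 (2.33-fold lower). Hoxa10 read 308 and 309 against 133 and 95.4 and was at -0.99, just under 2-fold, without the consomic PN1 array.

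**Figure D3:**
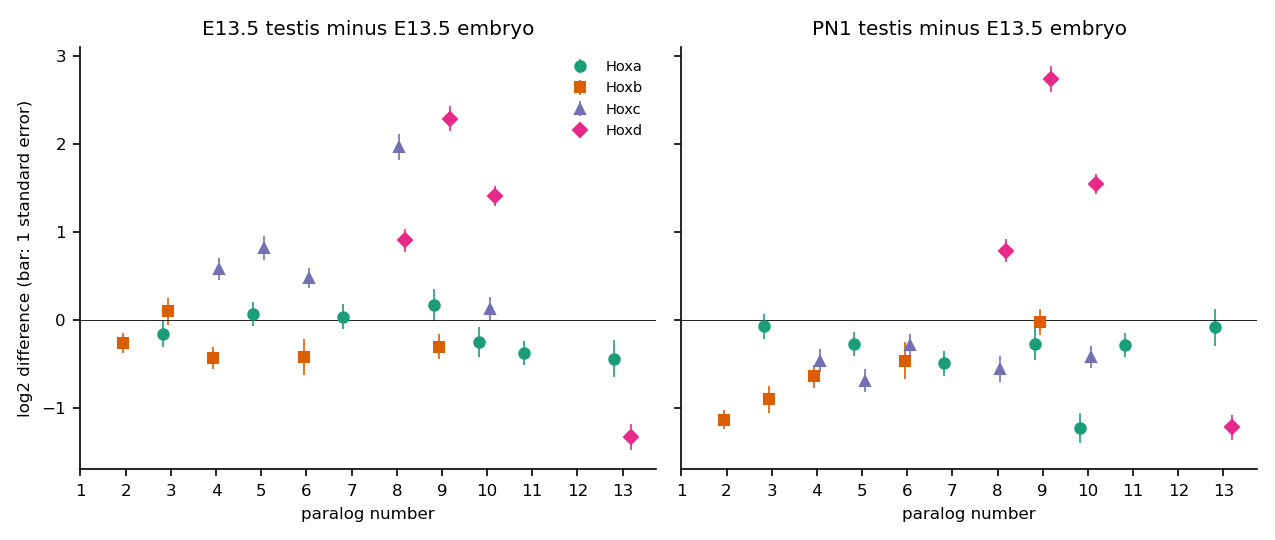
Log2 difference from the E13.5 embryo of the 21 tested Hox genes by paralog number, in E13.5 testis and in PN1 testis, with 1 standard error as bars and 1 symbol per cluster. Hoxd9, Hoxd10 and, at under 2-fold, Hoxd8 stand above the embryo at both ages, and Hoxc8 in the E13.5 testis.

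Whether each member already differed from the embryo in the E13.5 testis was read from the E13.5 testis arrays. Both contrasts share the embryo arrays, so a gene was placed by the difference between the ages as well. In the E13.5 testis 3.55% of the genes tested were higher than in the embryo by at least 2-fold and 1.57% were lower, and at any fold 17.1% were called higher and 5.27% lower. PN1 testis was called higher than E13.5 testis for 4.18% and lower for 10.6%. Of the 489 gained genes, 228 (46.6%) were already at least 2-fold higher in the E13.5 testis and 141 (28.8%) were called higher at under 2-fold. For 108 (22.1%, or 0.829% of genes tested) the E13.5 testis was not called different from the embryo, lay within 2-fold of it and was called lower than the PN1 testis. Of the 313 lost genes, 165 (52.7%) were already at least 2-fold lower, 46 (14.7%) were called lower at under 2-fold, and 90 (28.8%, or 0.691% of genes tested) were not yet different. The E13.5 testis was called the opposite way for 5 gained and 4 lost genes, and 7 and 8 could not be placed. Being not yet different means that a difference was not called, and does not show that the E13.5 testis equals the embryo. The 2 classes are called late gains and late losses below. They depend on the filter on dim genes: with no filter, 11 late gains and 8 late losses were found, 7 and 5 of them shared with these.

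**Figure D4:**
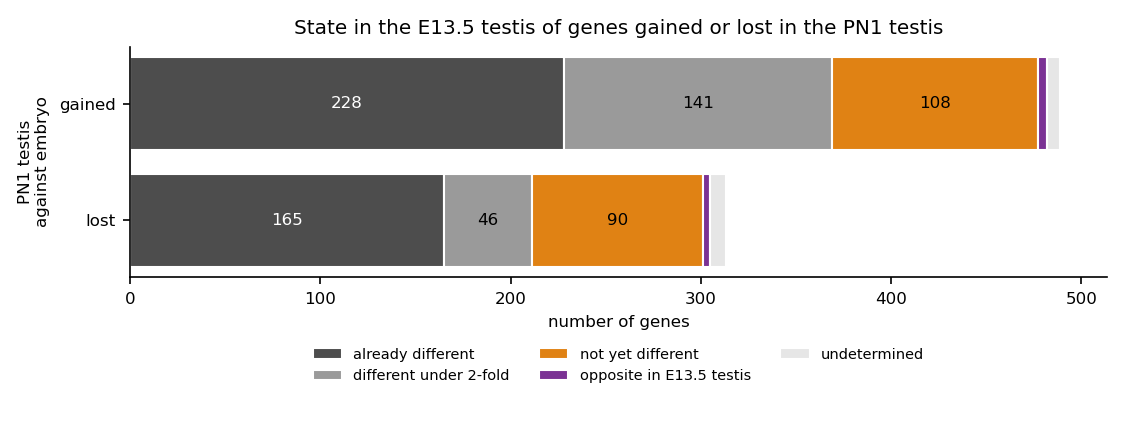
Number of genes gained (489) or lost (313) in PN1 testis against E13.5 embryo, with each bar split by the state of the gene in the E13.5 testis. 108 gained and 90 lost genes were not yet different there.

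The 10 late gains and the 10 late losses given here had the largest differences between PN1 and E13.5 testis in each direction. The first of the gains was Cst12. Cst12, a cystatin like Cst9, read 76.5 and 78.9 in embryos, 77.9 and 78.2 in E13.5 testes, all at the floor, and 5100 and 4798 in PN1 testes, at least 43.1-fold higher than in the embryo (adjusted p = 9.32e-07). Cst9, in contrast, read 2638 and 2716 in E13.5 testes. Ccl17, a chemokine that attracts T cells, read 101 and 108, 142 and 141 and 827 and 1364 in the same order. Serpina5, a serine protease inhibitor of the male tract, read 129 and 109, 131 and 109 and 738 and 1034. Every PN1 value of Cst12, Ccl17 and Serpina5 was above every E13.5 value. Hsd17b1, which reduces estrone to estradiol, read 251 and 226, 303 and 207 and 1591 and 1740.

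The other 6 of these 10 follow. The amino acid transporter Slc38a5 read 256 and 210 in embryos, 146 and 141 in E13.5 testes and 659 and 1076 in PN1 testes. Fabp3, a fatty acid-binding protein, read 272 and 218, 202 and 283 and 1086 and 1071. Dpt, the matrix protein dermatopontin, read 191 and 145, 140 and 108 and 712 and 475. In these 3 genes the E13.5 testis was near or below the embryo, and only PN1 was high. Exoc3l2 read 162 and 175, 196 and 224 and 1043 and 1078, but its second expressed probe set gave 0.27 and 0.44 against the embryo in the 2 strains. The transcript 4930550L24Rik read 95.7 and 80.3, 143 and 122 and 746 and 872. Bcan, a proteoglycan best known from brain, read 324 and 270, 270 and 210 and 1052 and 1158, but its second expressed probe set differed from the embryo by -0.06 and -0.13 in the 2 strains. Without the consomic PN1 array 8 of the 10 stayed in the class. Exoc3l2 was then called higher, and Slc38a5 lower, in the E13.5 testis than in the embryo.

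Of the 20 gained Sertoli cell genes 16 were already different and 4 were late. The late ones act on steroids or respond to hormones: Hsd17b1, Hsd17b3, which makes testosterone (565 and 573, 669 and 622 and 2244 and 1759), Shbg, which binds sex steroids (239 and 211, 254 and 249 and 602 and 734), and Fshr, the receptor for follicle-stimulating hormone (264 and 236, 221 and 181 and 467 and 493). Fshr was at 0.94, under 2-fold, without the consomic PN1 array. Hsd17b3, Shbg and Fshr were named after their values were seen. Of the 11 gained steroidogenic genes 9 were already different, Nr5a1 was called higher at under 2-fold (1236 and 1187 in E13.5 testes), and Hsd17b3 was late.

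Most gained germ cell genes were already high in the E13.5 testis. Mael read 344 and 283 there, Ddx4 395 and 386, and Dppa4 746 and 595. From E13.5 to PN1 the difference was 2.37 for Mael (adjusted p = 5.77e-05), 0.35 for Ddx4 (adjusted p = 0.0866) and -0.53 for Dppa4 (adjusted p = 0.0943). Tdrd9 (133 and 101 in E13.5 testes) and Sycp3 (173 and 117) were late. For Sycp3 both embryo arrays, at 20.6 and 26.6, were raised to the floor. Its difference of 0.3 between E13.5 testis and embryo is therefore a lower bound, and its place among the late gains depends on the floor.

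Some germ cell genes were high in the E13.5 testis and fell by PN1. The embryo is of the same age as the E13.5 testis, so its low values show no rise over time. Dppa5a, of pluripotent and early germ cells, read 187 and 178 in embryos, 3763 and 3907 in E13.5 testes and 263 and 257 in PN1 testes. Dppa3, of the same cells, read 221 and 190, 2864 and 2720 and 224 and 238. The differences from E13.5 to PN1 were -3.87 and -3.59 on the log2 scale (adjusted p = 5.77e-06 and 8.1e-06), and neither was gained at PN1. Over all kinds of genes, 82 of the 462 that were at least 2-fold higher in the E13.5 testis than in the embryo were not gained at PN1 and were called at least 2-fold under the E13.5 testis. Of all genes tested 2.3% were called so, but a choice of genes high in the E13.5 testis favours this call, and the shares are not comparable. Hoxc8, at 362 and 363, 1331 and 1339 and 260 and 205, was another of the 82. These 3 genes were named after their values were seen.

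Of the 8 gained interstitial genes Tcf21, at 3752 and 3661 in E13.5 testes, and Dcn, at 6177 and 4407, were already different, and 3 were late. Beside Dpt these were Tagln, an actin-binding protein of smooth muscle (833 and 797, 703 and 620 and 2878 and 1769), and the growth factor Igf1 (1505 and 1295, 915 and 868 and 3477 and 1994). Igf1 was called lower in the E13.5 testis than in the embryo when the consomic PN1 array was left out. Tagln and Igf1 were named after their values were seen. Of the immediate early genes Fos (174 and 185, 186 and 163 and 388 and 364) and Egr2 (71.3 and 63.3, 54.3 and 50.4 and 234 and 277) were late, and Egr1, at 496 and 525 in E13.5 testes, was already different.

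9 late gains were at the floor on all 4 arrays of E13.5 tissue, among them Cst12, Egr2 and Gsta2. Gsta2, a glutathione transferase, read 589 and 458 in PN1 testes (at least 4.53-fold higher). Over the 108 late gains, 88 passed 2-fold in both strains, the median difference was 1.36, and that of the E13.5 testis from the embryo was 0.19.

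**Figure D5:**
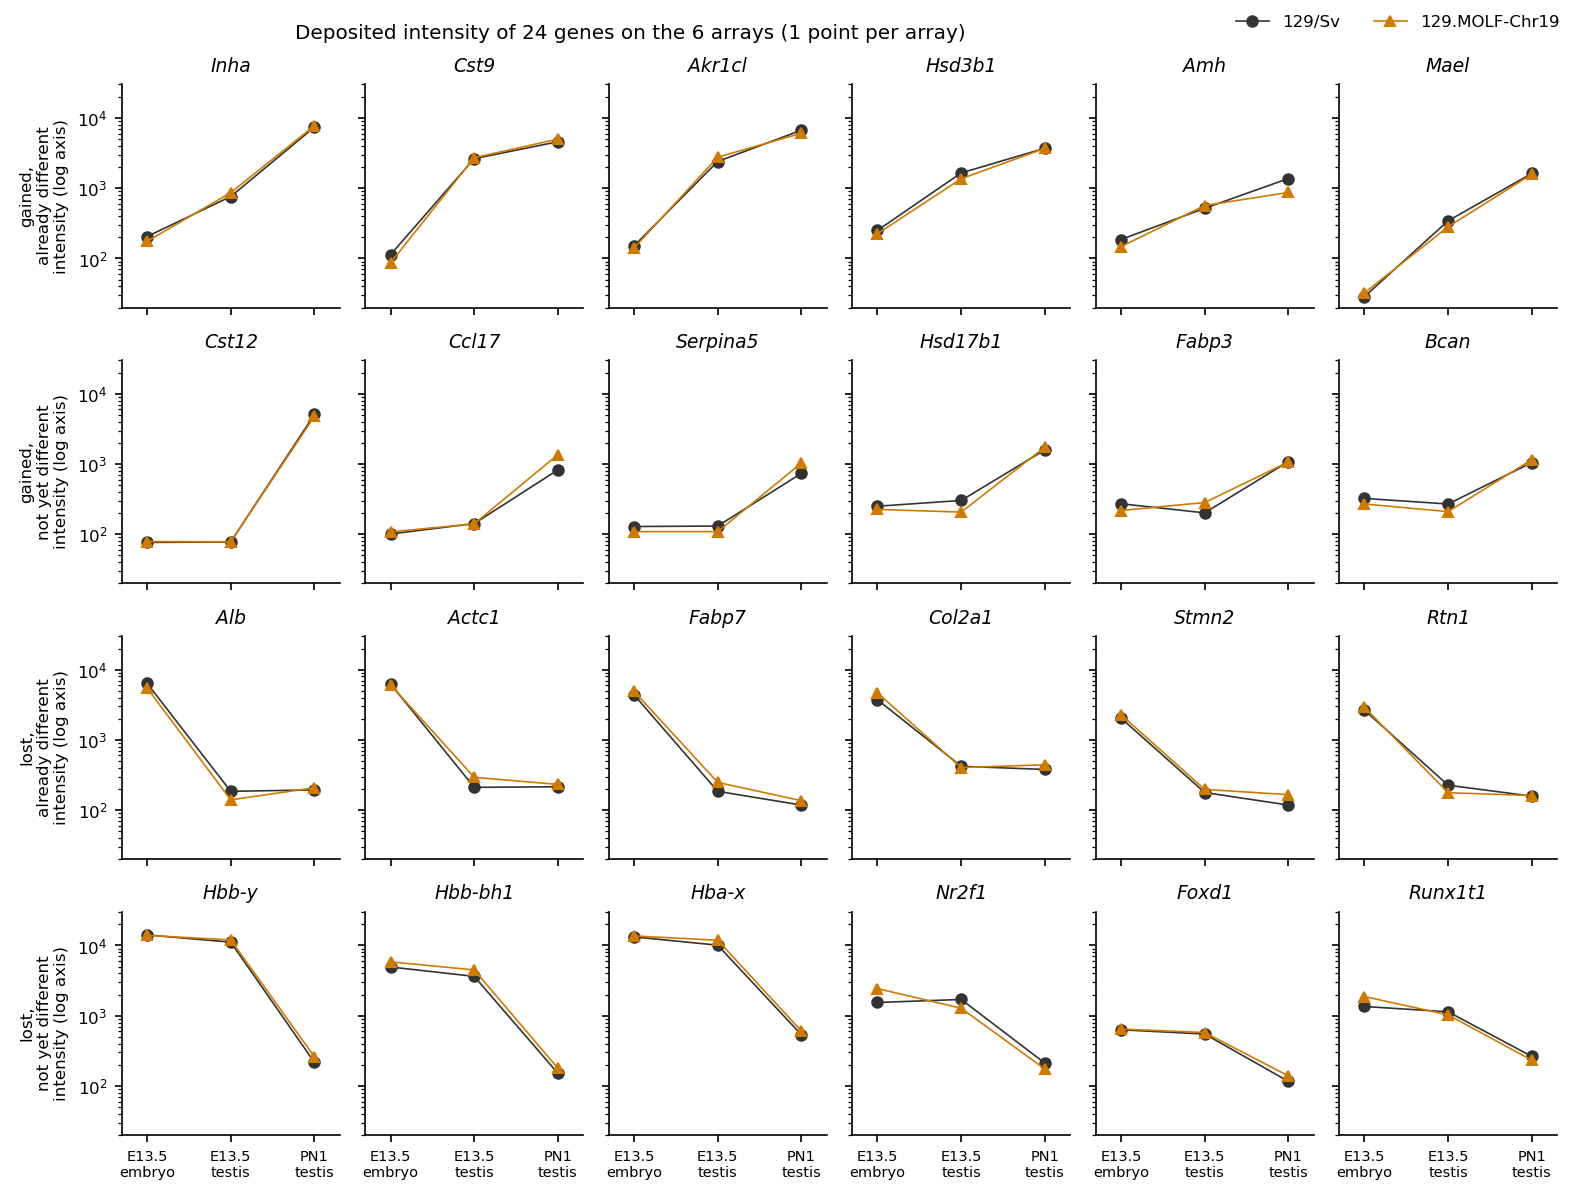
Deposited intensity on a log axis of 24 genes in E13.5 embryo, E13.5 testis and PN1 testis, 1 point per array with 129/Sv as circles and 129.MOLF-Chr19 as triangles. From top to bottom the rows hold gains already present in the E13.5 testis, late gains, losses already present in the E13.5 testis and late losses. Cst12 is flat until PN1, and the 3 globins fall at PN1.

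The 3 embryonic globins had the largest falls between the ages of the late losses. Hbb-y read 11158 and 11993 in E13.5 testes, close to the embryos (difference -0.2, adjusted p = 0.26), and from there to PN1 fell by 5.6 on the log2 scale (adjusted p = 9.32e-07). Hbb-bh1 read 3633 and 4486 and Hba-x 10101 and 11864 in E13.5 testes. Other red cell genes were already low in the E13.5 testis. Slc4a1 read 367 and 448 in E13.5 testes, and Klf1, a transcription factor of red cell precursors named after its values were seen, read 1041 and 1040 in embryos, 197 and 176 in E13.5 testes and 182 and 190 in PN1 testes. Of the 11 lost erythroid genes 7 were already different, and the 3 that were late were the globins.

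Lost genes of the other embryonic organs were mostly low in the E13.5 testis too. The embryo is of the same age, so this is a difference between tissues and shows no fall over time. Among the lost genes, 14 of 15 neural, 13 of 13 liver, 11 of 13 muscle and 3 of 3 lens genes were already at least 2-fold lower in the E13.5 testis, where 52.7% of all lost genes were. Fabp7 read 185 and 248 there, Alb 185 and 140 and Actc1 211 and 293. None of the lost neural, liver, muscle or lens genes was late.

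Among the late losses, the largest fall between the ages after the globins was that of Nr2f1. Nr2f1, an orphan nuclear receptor, read 1544 and 2431 in embryos, 1704 and 1278 in E13.5 testes and 211 and 174 in PN1 testes (9.47-fold lower than embryo). Foxd1, a factor of stromal progenitors, read 630 and 646, 549 and 576 and 116 and 139. Meis2, a homeobox cofactor, read 1613 and 1968, 2231 and 1720 and 538 and 290. Runx1t1, a corepressor, read 1353 and 1872, 1136 and 1028 and 263 and 232, and its 3 other expressed probe sets differed from the embryo by -1.92, -2.15 and -1.99. Ncam1, a cell adhesion molecule, read 2068 and 1763, 3040 and 2216 and 622 and 295. Every PN1 value of these 5 genes lay below every E13.5 value. Of the 3 other expressed probe sets of Ncam1, 2 gave differences from the embryo between -0.61 and -0.16, and 1 of the 3 of Meis2 gave -0.56 and -0.25. Without the consomic PN1 array Runx1t1 was called lower, and Ncam1 higher, in the E13.5 testis than in the embryo.

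2 of the 10 late losses with the largest falls between the ages rested on the consomic PN1 array. Rbfox2, a splicing factor, read 1280 and 1403, 1370 and 1636 and 607 and 154, and Mtf2, a Polycomb cofactor, 1339 and 1611, 2927 and 2458 and 933 and 443. Without that array their differences were -0.9 and -0.51, both under 2-fold, with adjusted p of 0.00524 and 0.115. The other expressed probe set of Rbfox2 gave -0.32 and -0.2 in the 2 strains, and the 4 of Mtf2 gave -0.78 to -0.26.

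Further late losses came from the lists. Cdkn1c read 5508 and 4495 in E13.5 testes, Igf2 8658 and 8812, Grb10 4896 and 4376, Rrm2 1800 and 2000, Fzd2 1927 and 2018 and Hoxb2 396 and 372. Cdkn1c and Rrm2 were called lower in the E13.5 testis than in the embryo, at under 2-fold, when the consomic PN1 array was left out. Lcn2, a lipocalin that binds iron carriers, read 1254 and 987, 845 and 784 and 472 and 90, and was at -1.2 without that array. Chgb, a secretory granule protein of the adrenal list, read 300 and 325, 258 and 778 and 55.2 and 66.8, with E13.5 testes that differed between strains, and was not called without that array (adjusted p = 0.13).

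Over the 90 late losses, 49 passed 2-fold in both strains. Without the consomic PN1 array 50 late losses were found, 43 of them among the 90, and without the 129/Sv PN1 array 134 were found, 73 of them among the 90. The late gains came to 102 and 100 in the same fits, 87 of the 108 being shared in each. Of 101 other expressed probe sets of late losses 87 were lower in PN1 testis than in embryo and 34 were so by at least 2-fold, and of 37 of late gains 32 were higher and 16 by at least 2-fold.

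On chromosome 19, which differs between the strains, 9 genes were gained and 8 were lost of 451 tested. On the X chromosome 26 were gained and 6 were lost of 408 tested. Over all genes tested 3.75% were gained and 2.4% were lost.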

How the data were processed

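RNA of 6 pools (total RNA, RNeasy kit, per the labels) was hybridised to 6 Affymetrix mouse arrays. The values are linear intensities deposited by the authors in the series matrix, 1 per probe set; the summarisation method is not given in the sources used here, and array number limits the precision. Of 45101 probe sets, 34945 carry 1 gene symbol, 932 several, 9160 none, and 64 are controls. Each array was divided by its median over probe sets, values under the 25th percentile of all scaled values were raised to that floor, and log2 was taken. A gene was its probe set with the highest mean, kept if above the array median on at least 2 arrays (13026 of 18193 genes).

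limma 3.58.1 (R 4.3.3) fitted tissue plus strain to all 6 arrays, leaving 2 residual degrees of freedom. It used eBayes trend and Benjamini-Hochberg adjustment over all genes tested. The code was also run on arrays simulated from the fit's own means and variances. That run cannot speak to the departures of the consomic PN1 array or to the late classes. Named genes were the 10 largest gains and losses past 2-fold in both strains, up to 4 gained and 4 lost members per list, cell type markers, Hox genes, Actb, and the 10 late genes with the largest differences between PN1 and E13.5 testis in each direction. The members and the 30 gene lists were chosen with earlier results of these data known. Alternatives covered scaling, floor, filter, probe set choice, fold limits, strain block, eBayes settings and left-out arrays.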

Additional observations from a re-analysis of the deposited data

Results flagged for a closer look

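Nr2f2, an orphan nuclear receptor of interstitial progenitors, differed in opposite directions in the strains. PN1 testis minus embryo was 1.2 in 129/Sv and -1.87 in 129.MOLF-Chr19 on the log2 scale. It read 1590 and 2097 in embryos, 5437 and 4534 in E13.5 testes, and 3325 and 558 in PN1 testes. Over both strains the difference was -0.33 (adjusted p = 0.757), and without the consomic PN1 array it was 1.04 (limma, adjusted p = 0.00462). With 1 array per strain and tissue the difference between the strains was not tested.

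Probe sets with no gene symbol entered no comparison above. Of 9160 of them, 45 were at least 2-fold higher in PN1 testis than in embryo in both strains, and 29 were at least 2-fold lower.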

How the results depend on the processing

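No paired analysis by replicate number was possible because the labels give no replicate numbers; strain is the block, and without it 489 genes were gained and 312 lost. The limit on the fold sets the counts: by adjusted p alone 1521 genes were higher and 1012 lower, and at least 4-fold 117 and 82. With no filter on dim genes 199 were lost, and late gains and losses came to 11 and 8. A filter at the 75th percentile left 71 late gains, and averaging the probe sets of each gene left 54 late losses. Values as deposited gave 411 gained and 373 lost, and the median over all genes tested was then -0.1. Leaving out 1 array at a time gave 454 to 543 gained, 288 to 409 lost, 100 to 134 late gains and 50 to 134 late losses, with 76 to 81 gained and 75 to 84 lost list members. No gained or lost gene named by the rule reversed its direction under the alternatives run. Of genes that did not pass the test, Hoxa3, Hoxa9, Hoxa13 and Hoxb9 changed sign when 1 array was left out, as did Nr2f2, at -0.33 with all arrays and 1.04 without the consomic PN1 array. Dim genes have only a bound.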
